A study of Mus musculus with 10 samples.

Results

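Splicing factors, heterogeneous nuclear ribonucleoprotein (hnRNP) genes and RNA helicase genes were followed in mouse testis after trichostatin A (TSA), an inhibitor of histone deacetylases. The genes were chosen by symbol, under a rule set with earlier results of these data known. It took every probe with 1 gene symbol beginning with Snrp, Sf3a, Sf3b, U2af, Prpf, Srsf, Sfrs, Srpk, Hnrnp or Hnrp. It also took symbols beginning with Lsm, Ddx or Dhx and a digit. The rule found 78 of the 8841 genes that the array names, through 80 of its 10012 probes. Values were given for 78 of these probes, and 73 probes (71 genes) passed the limit on dim signals, as did 7422 probes of the whole array.

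RNA came from the testes of 15 male Balb-c mice aged 9 weeks, divided into 5 groups of 3. The control mice received only the carrier, dimethylsulfoxide and PBS, and were killed after 10 h. The other mice received 60 µg of TSA per mouse in 1 subcutaneous injection and were killed after 2.5, 5, 7.5 or 10 h, so that only the 10 h group was matched to the control in hours. The 3 RNAs in each group were combined, and the pool was read on 2 one-colour CodeLink arrays, which are technical replicates. Each group was therefore 1 sample, and the spread between mice was not measured. Values are the deposited normalised intensities, which have no unit, and fold changes are on the log2 scale.

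The spliceosome removes introns from pre-mRNA and is built from small nuclear ribonucleoproteins (snRNPs), each a small RNA with a ring of Sm or Lsm proteins. The U1 snRNP marks the start of the intron, U2AF and the SF3A and SF3B complexes bring the U2 snRNP to the branch point, and the Prpf proteins belong mostly to the particles that join later. SR proteins (Srsf), which Srpk kinases phosphorylate, and hnRNPs bind exons and introns and influence which sites are used. DEAD-box (Ddx) and DEAH-box (Dhx) helicases remodel RNA. Some of them drive steps of splicing, while others act in ribosome assembly, translation or RNA storage. In the testis, spermatocytes and spermatids use many alternative exons and store mRNA for later translation, which involves the germ cell helicases Ddx4 and Ddx25.

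The 2 arrays of a pool correlated with r between 0.995 and 0.998 over the 7422 tested probes. The standard deviation of a single array about its pool mean was 0.0882 to 0.143 (log2) over the 73 tested probes of the chosen genes. Transcripts of germ cells marked the tissue as testis: Tnp1 of spermatids had a control intensity of 172 and Ldhc of spermatocytes one of 195. The summed intensity of 6 spermatid markers was 529 to 544 on the control arrays and 565 to 663 on the TSA arrays. That of 6 pachytene spermatocyte markers was 350 to 351 and 323 to 343. Markers within a list differed. Ldhc was higher in every TSA pool (211 to 219, control 195) and Pgk2 was lower (63.8 to 73.3, control 91.2). Of the spermatid markers, Acrv1 was 22.8 in the control and 30.3 to 35.9 in the TSA pools. Odf1 was 82.1 in the control and 76.9, 79.2, 86.4 and 82.4 at 2.5, 5, 7.5 and 10 h. The sum of 7 liver genes was 7.44 in the control pool and 155 in the 5 h TSA pool, against 7.89 to 10.8 in the other TSA pools. No marker of any list passed a limma test below. By the 2-fold size rule used below, all 7 liver genes were higher at 5 h and 1 at 2.5 h, and none of the other lists had a marker past it at any time. The part of these shifts in the results that follow was not tested, and in a bulk sample fewer cells of a type and less RNA per cell cannot be told apart.

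Most of the genes stayed close to their control level. Averaged over the 4 TSA pools, 64 of the 73 tested probes (87.7%) lay within 0.5 of the control on the log2 scale, against 85.4% of all tested probes. Their median was -0.02, the same as for all probes, and their range was -0.89 to 0.80. Expression of Dhx38, Prpf4b and Hnrnpab was higher in the TSA pools than in the control pool, and Ddx24 had a falling slope over hours. These calls stood close to the threshold and were lost when any TSA pool was left out, as given below. Srsf1 was the only member to stand at least 2-fold from the control at any time, at 5 h. The 5 h pool also held the liver transcripts given above.

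In a limma test of the 4 TSA pools against the control pool with Benjamini-Hochberg adjustment over 7422 probes, 3 of the 73 members (4.11%) passed an adjusted p of 0.05. The share among all probes was 3.53%. All 3 members were higher (2.74% of all probes), and none of the members was lower (0.795% of all probes). Before adjustment, 8 members were higher at p under 0.05 and 11 were lower, shares of 11% and 15.1% beside 14.7% and 13.7% of all probes. The test counts the 4 times as replicates of TSA and compares them with a single control pool, so an error in that pool enters every difference.

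Dhx38, on chromosome 8, encodes the helicase that remodels the spliceosome between its catalytic steps. Its intensity was 0.716 and 0.742 on the control arrays, 1.2 and 1.24 at 2.5 h, 1.14 and 1.26 at 5 h, 1.2 and 1.43 at 7.5 h, and 1.41 and 1.31 at 10 h. All 8 TSA arrays were above both control arrays. The rise was 1.74-fold (log2 difference 0.80 ± 0.123, SE, limma adjusted p = 0.0458), with log2 folds of 0.74, 0.71, 0.85 and 0.90 at the 4 times.

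Prpf4b, on chromosome 13, encodes a kinase that phosphorylates spliceosomal proteins. Its intensity was 0.962 and 1.0 in the control, 1.55 and 1.65 at 2.5 h, 1.43 and 1.54 at 5 h, 1.76 and 1.81 at 7.5 h, and 1.69 and 1.82 at 10 h. Here too the groups did not overlap. The rise was 1.68-fold (0.75 ± 0.138, SE, limma adjusted p = 0.0478).

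Hnrnpab, on chromosome 11, encodes an RNA-binding protein of the hnRNP A/B type. Its control intensities were 7.81 and 7.73. TSA arrays gave 12.4 and 11.4 at 2.5 h, 12.6 and 13.2 at 5 h, 11.8 and 10.8 at 7.5 h, and 12.1 and 12.4 at 10 h. The increase was present in full at the earliest time and every TSA array exceeded the control arrays. It amounted to 1.55-fold (0.64 ± 0.119, SE, limma adjusted p = 0.0484). All 3 calls stood close to the threshold and were lost when any 1 TSA pool was left out (adjusted p from 0.0564 to 0.11), the 5 h pool with the liver transcripts included, while the differences stayed between 0.61 and 0.83. Leaving out either array of the 2.5 or 7.5 h pool, the second of the 5 h pool or the first of the 10 h pool also ended all 3 calls, with adjusted p of 0.0504 to 0.0787.

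In the limma fit of a straight line over hours, with the control at 0 h, 1 of the 73 members (1.37%) passed, beside 2.01% of all probes. It had a falling slope (1.66% of all probes), and no member had a rising slope that passed (0.35%). At an unadjusted p under 0.05, 6 members rose with time and 10 fell, 8.22% and 13.7% beside 12.7% and 12.4% of all probes. The control was killed at 10 h, so its place at 0 h is a choice of the fit.

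Ddx24, on chromosome 12, encodes a nucleolar DEAD-box helicase. Its intensity was 1.27 and 1.23 in the control, 1.0 and 1.03 at 2.5 h, 0.867 and 0.844 at 5 h, 0.615 and 0.639 at 7.5 h, and 0.626 and 0.712 at 10 h. Each pool lay below the one before it up to 7.5 h, and the arrays of the last 2 times overlapped. The fitted slope was -0.10 ± 0.0173 per hour (log2, SE, limma adjusted p = 0.0437). Its log2 fold was -0.30, -0.55, -0.997 and -0.91 at the 4 times, the third just short of the 2-fold limit. As an average over the TSA pools it stood at -0.69 ± 0.263 (limma adjusted p = 0.149). The slope did not pass when any 1 of the 5 pools was left out: adjusted p was 0.207 without the control, and 0.0588, 0.0763, 0.0961 and 0.125 without the 2.5, 5, 7.5 and 10 h pools. It also missed the threshold, at 0.051 to 0.0627, without 1 array of the control, 2.5 h or 10 h pool or either array of the 7.5 h pool.

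A size rule was applied at each time, asking for at least 2-fold with both TSA arrays beyond both control arrays, and with no p. It found none of the members at 2.5 h (0.916% of all probes), 7.5 h (1.91%) or 10 h (2.67%), and 1 at 5 h (1.55%, 0.337% for the lower direction). This was Srsf1, on chromosome 11, an SR protein that promotes the use of nearby splice sites. Its control intensities were 0.519 and 0.472. TSA arrays gave 0.298 and 0.345 at 2.5 h, 0.23 and 0.205 at 5 h, 0.29 and 0.268 at 7.5 h, and 0.225 and 0.302 at 10 h. All TSA arrays were below the control arrays, with a log2 fold of -1.19 ± 0.108 at 5 h (SE from the 2 arrays of each pool) and of -0.63, -0.83 and -0.93 at 2.5, 7.5 and 10 h. Averaged over the TSA pools it stood at -0.89 ± 0.203 (limma adjusted p = 0.0607). The signal lies close to the dim limit, a mean intensity of 0.207, and adding 0.25 to every intensity took it out of the rule at 5 h. That pool also held the liver transcripts, whose part in this call was not tested.

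**Figure D1:**
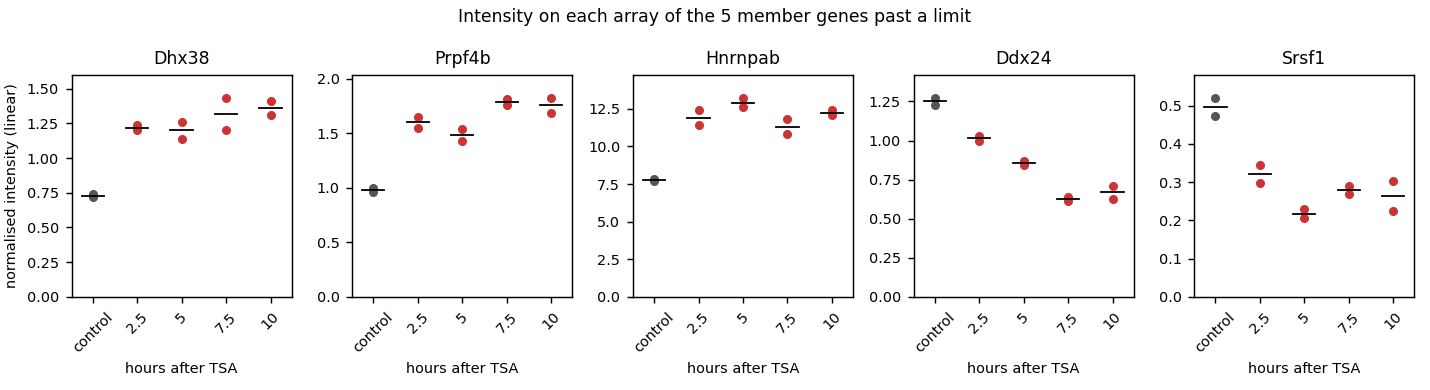
Intensity of Dhx38, Prpf4b, Hnrnpab, Ddx24 and Srsf1 on each array (points) and the mean of the 2 arrays of a pool (short bar), by pool from control to 10 h after TSA, with each vertical axis starting at 0. In the first 3 genes every TSA array lies above both control arrays, in the last 2 below.

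The region just before the start of transcription is shown for those of the 5 members above that the promoter table lists, so that the letters of their promoters can be set beside their values. The sequences are the 250 bases before the start, from RefSeq, build GRCm38.p6, written 5′ to 3′ on the strand of the gene. Capitals mark matches, on either strand, to the CCAAT box (CCAAT), the GC box (GGGCGG), the TATA box (TATAAA) or the core bound by ETS factors (CCGGAAG). The windows are chr12:103425848-103426097 (minus strand) for Ddx24, chr11:51606882-51607131 (minus) for Hnrnpab, chr13:34875279-34875528 (plus) for Prpf4b and chr11:88047123-88047372 (plus) for Srsf1.
Ddx24: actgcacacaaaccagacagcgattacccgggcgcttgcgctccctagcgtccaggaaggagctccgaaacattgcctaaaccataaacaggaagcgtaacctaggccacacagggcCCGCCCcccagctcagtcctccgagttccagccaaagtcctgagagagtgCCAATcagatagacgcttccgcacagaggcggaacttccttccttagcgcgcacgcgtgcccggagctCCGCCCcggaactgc
Hnrnpab: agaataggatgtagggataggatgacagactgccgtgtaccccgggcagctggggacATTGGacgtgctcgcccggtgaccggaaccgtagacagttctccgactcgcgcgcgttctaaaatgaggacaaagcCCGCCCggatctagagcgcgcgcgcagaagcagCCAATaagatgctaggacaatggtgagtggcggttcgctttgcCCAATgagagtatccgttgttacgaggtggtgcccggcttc
Prpf4b: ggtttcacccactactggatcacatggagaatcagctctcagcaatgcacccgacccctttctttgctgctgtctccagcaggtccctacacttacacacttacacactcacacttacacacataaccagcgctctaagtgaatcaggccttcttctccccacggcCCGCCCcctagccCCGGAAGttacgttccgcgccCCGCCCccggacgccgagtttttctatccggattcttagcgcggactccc
Srsf1: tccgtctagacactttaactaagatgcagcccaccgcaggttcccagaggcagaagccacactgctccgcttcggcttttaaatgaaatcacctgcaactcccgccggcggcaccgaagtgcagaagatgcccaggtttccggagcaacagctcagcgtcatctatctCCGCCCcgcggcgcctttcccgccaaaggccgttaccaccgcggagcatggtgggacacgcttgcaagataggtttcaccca

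Each of the 4 windows holds at least 1 GC box and none holds a TATA box. Hnrnpab has 3 CCAAT boxes, Ddx24 has 1, and the other two have none. The ETS core is present in Prpf4b alone of the 4. Over 91 listed promoters of 69 member genes, 63.7% held a GC box, 39.6% a CCAAT box, 28.6% an ETS core and 7.69% a TATA box. The shares over 8925 promoters of the other genes on the array were 50.9%, 34.6%, 10.1% and 8.74%, and over all 32841 listed promoters 32.7%, 33.9%, 6.91% and 12.4%. The median number of CpG steps was 19 in the members' windows and 13 in those of the other genes on the array. A match is a run of letters and not a measured binding site. These shares are a description, since promoters of 1 gene overlap.

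**Figure D2:**
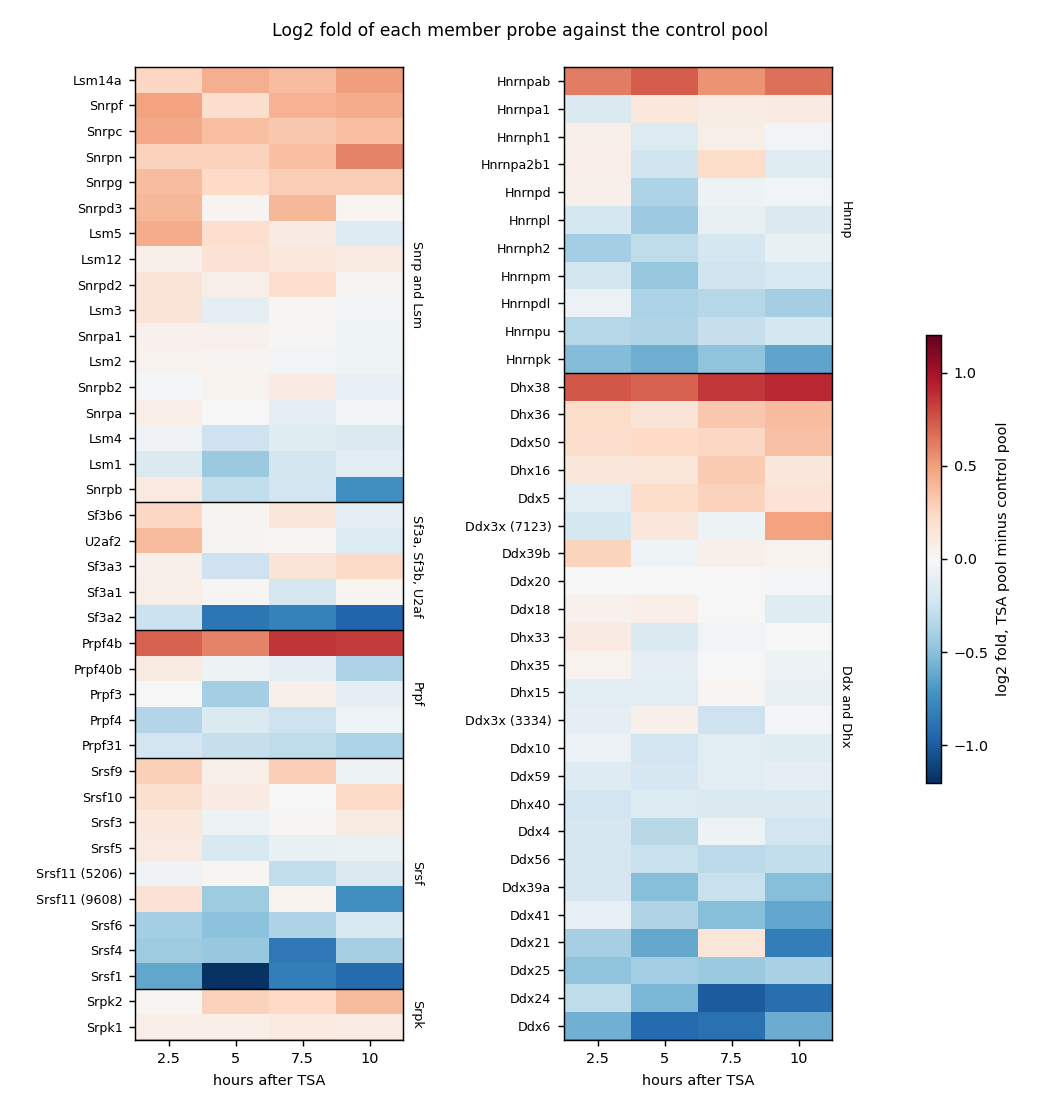
Log2 fold of each tested member probe against the control pool (colour, red higher and blue lower) at 2.5, 5, 7.5 and 10 h after TSA, with genes grouped by class and ordered by mean fold. Dhx38, Prpf4b and Hnrnpab are red at all times, and most cells are pale.

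Compared array by array, 12 of the 73 members (16.4%) had all 8 TSA arrays above both control arrays, beside 22.2% of all probes. They were Ddx50, Dhx16, Dhx36, Dhx38, Hnrnpab, Lsm12, Lsm14a, Prpf4b, Snrpc, Snrpf, Snrpg and Snrpn. Another 16 (21.9%) had all TSA arrays below, beside 23% of all probes. Both shares were under those of the whole array.

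The snRNP proteins came first by role. All 17 Snrp and Lsm probes were tested, none passed a test, and all lay within 0.5 of the control. Their median was 0.11 over the TSA pools and 0.15, 0.05, 0.09 and -0.03 at the 4 times, against -0.02, -0.03, -0.01 and 0.01 for all probes. Of the 17 probes, 8 were above the control in 4 of 4 TSA pools and 2 were below in all 4, beside 32.3% and 34.1% of all probes.

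Among 6 genes of the Sm ring, the core of most spliceosomal snRNPs, 5 were above the control in every TSA pool, beside 32.3% of all probes. Their median difference was 0.26. Snrpf had intensities of 21.1 and 20.7 in the control and 23.4 to 29.7 on the TSA arrays (0.39 ± 0.137, SE, limma adjusted p = 0.132). Snrpg gave 15.3 and 17.8 in the control and 19.3 to 21.7 after TSA (0.30 ± 0.111, adjusted p = 0.142). For both, the TSA arrays lay above the control arrays without overlap, as in 22.2% of all probes, and neither passed the test.

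Snrpn encodes SmN, a form of the SmB protein made from an imprinted locus. Its arrays gave 1.66 and 1.8 in the control, 2.27 and 1.93 at 2.5 h, 2.1 and 2.11 at 5 h, 2.28 and 2.17 at 7.5 h, and 2.52 and 2.7 at 10 h. The slope was 0.051 ± 0.0142 per hour (limma adjusted p = 0.100). Snrpb, which encodes SmB itself, had 11.8 and 11.3 in the control, 12.3 and 12.7 at 2.5 h, 9.47 and 9.38 at 5 h, 9.85 and 9.91 at 7.5 h, and 7.16 and 6.77 at 10 h. It stood above the control at the earliest time and below it at the others. Its slope was -0.072 ± 0.0198 per hour (limma adjusted p = 0.0974). The 2 genes of this pair thus had slopes of opposite sign, neither past the threshold. The difference between them was not tested.

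Snrpd2, also of the Sm ring, had 61.2 and 59.4 in the control and 55.3 to 69.9 after TSA, so its arrays overlapped (0.11 ± 0.119). Snrpc, a protein of the U1 snRNP, had 33.4 and 33.6 in the control and 41.0 to 46.4 on the TSA arrays, with no overlap (0.38 ± 0.112, limma adjusted p = 0.0958). The other snRNP proteins were flatter. Snrpa of U1 and Snrpa1 and Snrpb2 of U2 stood at -0.02, 0.01 and 0.00.

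The Lsm ring binds the U6 RNA, or, with Lsm1 in it, marks mRNA for decapping. Its 5 genes had a median of 0.00. Lsm1 was lowest at -0.24 ± 0.147 and Lsm5 highest at 0.14 ± 0.213. Lsm5 gave 3.09 and 3.84 in the control, 4.56 and 4.8 at 2.5 h, and 3.15 and 3.02 at 10 h, so its 10 h arrays overlapped the control arrays. Lsm14a, a protein of cytoplasmic RNA granules, had 0.824 and 0.802 in the control and 0.93 to 1.17 after TSA, without overlap (0.39 ± 0.131, limma adjusted p = 0.122).

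Of 6 probes for the factors that recruit U2, 5 were tested and none passed. U2af2, which binds the pyrimidine tract before the end of the intron, had 2.93 and 3.03 in the control, 3.76 and 3.97 at 2.5 h, 3.26 and 2.87 at 5 h, 3.08 and 2.97 at 7.5 h, and 2.77 and 2.57 at 10 h. It was high at 2.5 h, and its 5 h arrays lay on both sides of the control arrays. Sf3b6, the branch point protein, had 8.37 and 8.41 in the control and 7.47 to 10.2 after TSA (0.08 ± 0.153). Sf3a2, of the SF3A complex, had 0.527 and 0.553 in the control, 0.425 and 0.478 at 2.5 h, 0.274 and 0.321 at 5 h, 0.258 and 0.368 at 7.5 h, and 0.278 and 0.28 at 10 h. All its TSA arrays were below the control arrays. Its slope of -0.098 ± 0.0201 per hour missed the threshold (limma adjusted p = 0.0587). The other 2 subunits of that complex, Sf3a1 and Sf3a3, stood at -0.02 and 0.05.

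The Prpf genes had a median of -0.12 over 5 tested probes of 6. Apart from Prpf4b, the values were -0.30 ± 0.114 for Prpf31, -0.21 for Prpf4, -0.12 for Prpf3 and -0.11 for Prpf40b. Prpf31, which holds the U4 and U6 particle to the U5 snRNP, had 0.747 and 0.71 in the control and 0.555 to 0.632 after TSA, with no overlap (limma adjusted p = 0.149). Prpf40b, linked to the U1 snRNP, had 8.45 and 8.62 in the control and 7.06 and 6.2 at 10 h.

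Of the SR proteins, 9 of 10 probes were tested and none passed either limma test. Their median was -0.12, and -0.18 at 10 h. Srsf4 had 0.635 and 0.576 in the control and 0.317 to 0.484 after TSA (-0.53 ± 0.192, SE, limma adjusted p = 0.135). Srsf6 had 4.14 and 3.84 and then 2.79 to 3.64 (-0.36 ± 0.143, adjusted p = 0.157). In both the TSA arrays lay below the control arrays without overlap, as in Srsf1 and in 23% of all probes. Srsf3, a short SR protein, gave 15.9 and 19.2 in the control and 16.7 to 20.8 after TSA, with overlap (0.05 ± 0.122). Srsf5, Srsf9 and Srsf10 stood at -0.06, 0.15 and 0.13.

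Srsf11 was read by 2 probes, which stood at -0.12 (probe 5206) and -0.24 (probe 9608). At 10 h their log2 folds were -0.18 and -0.73, so the size of the difference depended on the probe. The kinases of the SR proteins were level or slightly above the control. Srpk1 had 17.7 and 17.2 in the control and 17.3 to 20.1 after TSA (0.09 ± 0.104). Srpk2 had 18.8 and 19.5, then 19.3 and 19.6 at 2.5 h, and 22.1 to 27.3 at the later times (0.23 ± 0.153, limma adjusted p = 0.367).

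The 11 hnRNP probes had a median of -0.23, the lowest of the 7 classes. Only Hnrnpab was above the control in all TSA pools, and 6 were below in all 4, beside 32.3% and 34.1% of all probes. The class median was -0.17, -0.36, -0.09 and -0.14 at the 4 times, lowest in the 5 h pool, which also held the liver transcripts. Hnrnpk, a poly(C)-binding protein of nucleus and cytoplasm, had 2.24 and 2.32 in the control, 1.63 and 1.54 at 2.5 h, 1.5 and 1.53 at 5 h, 1.63 and 1.63 at 7.5 h, and 1.49 and 1.45 at 10 h. The TSA arrays lay well below the control arrays, and the difference of -0.56 ± 0.115 fell just short of the threshold (limma adjusted p = 0.0523).

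Hnrnpu, which binds nuclear RNA and chromatin, had 10.9 and 10.8 in the control and 8.28 to 9.62 after TSA (-0.30 ± 0.116, limma adjusted p = 0.154). Hnrnpdl had 18.6 and 18, and 13 to 17.8 (-0.30 ± 0.155). Hnrnpl, which binds CA repeats, had 7.32 and 7.21, and 5.31 to 6.89 (-0.23 ± 0.152). These 3 did not overlap with the control either, beside 23% of all probes with all TSA arrays below. Hnrnpa1 and Hnrnpa2b1, regulators that often oppose SR proteins, stood at 0.03 ± 0.146 and -0.02 ± 0.187. Hnrnpa2b1 arrays ran from 22.8 to 28.5 in the control and from 21.2 to 32.0 after TSA. The other 4, Hnrnpd, Hnrnph1, Hnrnph2 and Hnrnpm, stood at -0.10, -0.01, -0.25 and -0.27.

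**Figure D3:**
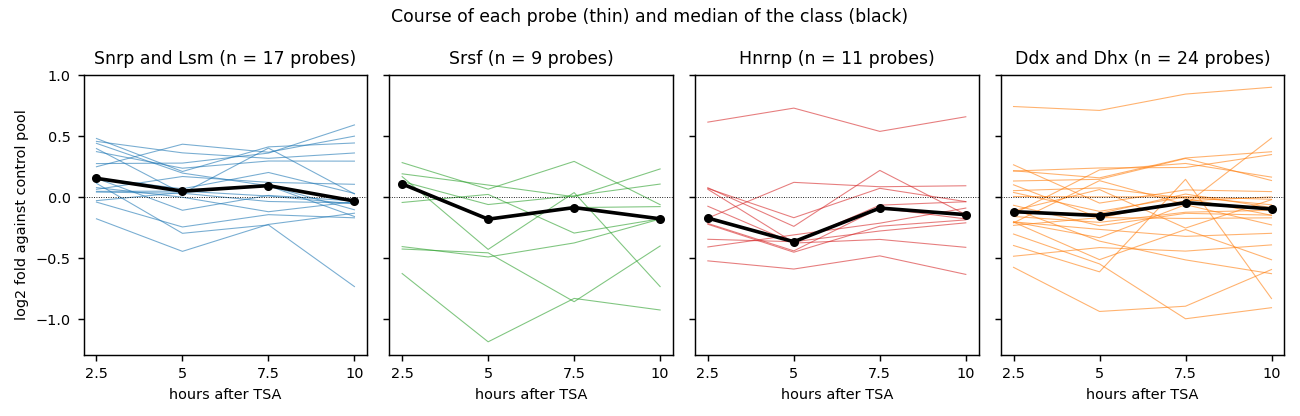
Log2 fold against the control pool of each tested probe (thin lines) and the median of its class (black line with points), by hours after TSA, for the snRNP and Lsm, SR protein, hnRNP and helicase classes. The hnRNP median is lowest at 5 h (-0.36), and the snRNP and Lsm median lies above 0 up to 7.5 h.

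Of 28 helicase probes, 24 were tested. Their median was -0.08, with -0.15 for 17 Ddx probes and -0.02 for 7 Dhx probes. Beside Dhx38 and Ddx24 none passed a test. Of these probes, 4 had all TSA arrays above the control and 7 had all of them below, beside 22.2% and 23% of all probes.

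Among germ cell helicases, Ddx25, needed for spermatids to complete their development, had 66.6 and 68.5 in the control, 49.2 and 47.4 at 2.5 h, 50.7 and 50.8 at 5 h, 50 and 49.4 at 7.5 h, and 49.6 and 53.5 at 10 h. The groups were far apart and the TSA pools close to each other. The difference of -0.43 ± 0.108 missed the threshold (limma adjusted p = 0.0717). The summed spermatid markers, given above, stood higher after TSA, and the summed pachytene spermatocyte markers and Ddx25 lower. Single markers within each list did not all follow the sum. Whether the mix of cells had a part in the Ddx25 value was not tested. Ddx4, the mouse form of vasa, had 21.5 and 18.6 in the control and 15.8 to 19.9 after TSA, with overlap (-0.21 ± 0.133, adjusted p = 0.347).

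Among the helicases of splicing and mRNA export, Ddx39b, which acts in both, had 7.0 and 7.49 in the control and 6.95 to 8.88 after TSA (0.08 ± 0.143). Its relative Ddx39a had 19.3 and 18.5, and 13.2 to 16.8, without overlap (-0.37 ± 0.16, limma adjusted p = 0.182). Dhx15, which takes the used spliceosome apart, stood at -0.08 ± 0.117, and Dhx16, which acts before the first catalytic step, at 0.18 ± 0.123. Ddx20, a partner of the SMN protein in snRNP assembly, was level with 15.8 and 16.2 in the control and 15.2 to 16.9 after TSA (0.00 ± 0.104). Ddx5, a helicase of splicing and transcription, stood at 0.13 ± 0.173, with control arrays of 12.6 and 18.4 that overlapped the TSA arrays.

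The remaining helicases have varied roles. Ddx41, linked to splicing and to sensing of foreign DNA, had 0.499 and 0.58 in the control and 0.345 and 0.352 at 10 h, and its fitted change was -0.067 ± 0.0132 (log2 per hour, limma adjusted p = 0.0545). Ddx6, of RNA storage granules, had 0.348 and 0.325 in the control and 0.119 to 0.317 after TSA (-0.75 ± 0.177, adjusted p = 0.0657), at signals near the dim limit. Dhx36, which unwinds G-quadruplexes, had 7.18 and 7.69, and 8.2 to 9.7 after TSA (0.27 ± 0.126). Ddx3x was read by 2 probes that did not move alike. Probe 3334 gave 5.11 and 6.24 in the control and 4.71 to 5.92 after TSA (-0.08 ± 0.145). Probe 7123 gave 0.469 and 0.422, and 0.364 to 0.625 (0.09 ± 0.248). The other 9 helicase probes lay between -0.42 (Ddx21) and 0.26 (Ddx50), and none passed a test.

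At 1.5-fold, with the same demand on the arrays, the counts by time were read beside the share of all probes in the same direction. Higher members numbered 3 at 2.5 h (5.27% of all probes), 3 at 5 h (5.25%), 2 at 7.5 h (6.32%) and 4 at 10 h (8.58%), which is 4.11%, 4.11%, 2.74% and 5.48% of the members. They were Dhx38 and Prpf4b at every time, Hnrnpab at all but 7.5 h, and Snrpn at 10 h. Lower members numbered 1 at 2.5 h (2.3%), 5 at 5 h (4.58%), 5 at 7.5 h (5.48%) and 9 at 10 h (7.87%), or 1.37%, 6.85%, 6.85% and 12.3% of the members. Srsf1 was among them at each time, Ddx6 and Sf3a2 at the last 3, and Ddx24 at the last 2. Ddx21 and Hnrnpk were lower by this rule at 5 h and 10 h, and Srsf4 at 7.5 h. At 10 h the group also held Ddx41, Snrpb and 1 probe of Srsf11. In the TSA pool matched to the control in hours, 25 members were higher and 48 lower, beside 3782 and 3640 of all probes.

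**Figure D4:**
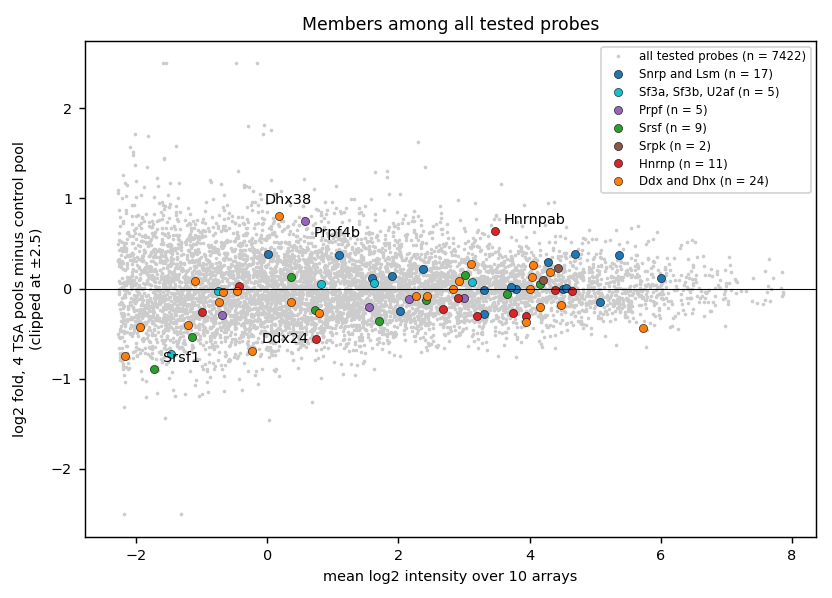
Mean log2 difference of the 4 TSA pools from the control against the mean log2 intensity of the 10 arrays, for all 7422 tested probes (grey, drawn at ±2.5 where beyond it) and the 73 members (coloured by class), with the 5 members past a limit labelled. The members lie inside the cloud of all probes, between -0.89 and 0.80.

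The TSA pools were also compared among themselves, 7.5 and 10 h against 2.5 and 5 h. None of the members and none of the 7422 probes (0%) passed limma with Benjamini-Hochberg adjustment. At an unadjusted p under 0.05, 3 members (4.11%) were lower late than early, close to the 4.38% of all probes, and none was higher (5.87% of all probes). They were Ddx24 (-0.53), Lsm5 (-0.35) and Ddx41 (-0.34).

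Of 106 further genes of pre-mRNA splicing and RNA export, 63 were on the array and 57 were tested, with 60 probes. None of the 60 probes rose in either limma test, 1 was lower in the TSA pools (0.795% of all probes) and 4 had a falling slope (1.66% of all probes). The median over the TSA pools was -0.16, beside -0.02 for all probes. Cbll1, a part of the complex that methylates adenosine in mRNA, fell by 1.01 (± 0.179, SE, limma adjusted p = 0.0474), from 0.815 and 0.84 to between 0.329 and 0.488. The slopes that passed were those of Prmt5, -0.158 per hour (adjusted p = 0.0223), Sf1, -0.110 (0.0230), Ilf2, -0.089 (0.0463) and Sart1, -0.080 (0.0437). Prmt5 methylates Sm proteins before snRNP assembly, Sf1 binds the branch point before U2, and Sart1 belongs to the tri-snRNP. The calls of Cbll1, Ilf2 and Sart1 also stood near the threshold, and every call depended on which pools were kept. Cbll1 did not pass when any 1 TSA pool was left out (adjusted p from 0.0564 to 0.103). Sf1, Ilf2 and Sart1 did not pass when any 1 of the 5 pools was left out (0.0505 to 0.211). Prmt5 did not pass without the control, 2.5 h or 10 h pool (0.058 to 0.161). All of these genes had dim signals, with control means of 0.597 to 0.972 beside a median of 1.99 over tested probes. They were left out with the lowest 50% of probes, so that setting did not retest them. With 0.25 added to every intensity, Ilf2 and Sart1 did not pass (limma adjusted p = 0.0645 and 0.0502). By the 2-fold size rule, Nova1 was higher at 7.5 h (log2 fold 1.00, at dim signals) and Celf2 at 10 h (1.07). Probe 10072 of Elavl1 was lower at 5 h (-1.07), with probe 9835 at -0.23. Cbll1 was lower at 7.5 h (-1.28) and 10 h (-1.01), and Acin1, Prmt5 and Sf1 at 10 h (-1.64, -1.645 and -1.18). The shares of all probes, either direction, were 1.55%, 1.91% and 2.67% at 5, 7.5 and 10 h.

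Prpf8, the core of the catalytic spliceosome, and Dhx30 had no values. Below the dim limit were Sf3b1, with 0.0546 to 0.136 over the 10 arrays, Srsf2, with 0.111 to 0.24, Dhx9, with 0.01 to 0.0993, Dhx34, with 0.0116 to 0.219, and Dhx58, with 0.0261 to 0.096. At such signals no direction was drawn.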

How the data were processed

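Testis RNA from 5 pools of 3 mice was measured on 10 CodeLink arrays, 2 per pool. The authors deposited 1 table of intensity values. The sources used here do not give the program or the background correction. The sorted values were identical on all arrays, as after quantile normalisation. Probes were named through the platform annotation, and no probe with several symbols was used.

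Intensities were raised to a floor of 0.0364 (the 5th percentile) and taken to log2. The arrays of a pool were averaged, and the lowest 25% of probes by mean were left out (mean intensity under 0.207). limma 3.58.1 in R 4.3.3 (lmFit, eBayes) fitted 5 pool means, with Benjamini-Hochberg adjustment over 7422 probes. The fits had 3 residual degrees of freedom, and 2 for the comparison among the 4 TSA pools. The p-values measure the spread of pool means about each fit. For TSA against control this spread comes from the 4 TSA pools, which were killed at different hours. The single control pool adds none and is taken to vary like them. Scripts were tested on simulated data. Plots used matplotlib 3.10.9 (Python 3.11.15).

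Members and lists were chosen with earlier results of these data known. The members named are those that passed a test or the size rule, the highest, lowest and brightest of each class, and a fixed set of well-known genes. Other members were named after their values were seen. Array number within a pool was tried as a block, although the numbers did not pair the arrays (correlations of -0.187 to 0.14 over 10 pairs of pools).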

Additional observations from a re-analysis of the deposited data

Results flagged for a closer look

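In 6 of the 30 named members tested (20%), the TSA arrays lay wholly above the control arrays at 1 time and wholly below at another. The same held for 15 of all 73 tested members (20.5%) and 1062 of 7422 probes (14.3%). The differences between times were not tested. Snrpb stood at a log2 fold of 0.11 at 2.5 h and at -0.30, -0.23 and -0.73 at 5, 7.5 and 10 h. Prpf40b stood at 0.11, -0.06, -0.10 and -0.37 at the 4 times. U2af2 stood at 0.37 at 2.5 h and -0.16 at 10 h. Sf3b6 stood at 0.25 at 2.5 h, 0.13 at 7.5 h and -0.11 at 10 h. Hnrnpa1 stood at -0.17 at 2.5 h and 0.12 at 5 h. Probe 7123 of Ddx3x stood at -0.21 at 2.5 h, 0.14 at 5 h and 0.48 at 10 h, while probe 3334 of the same gene stood at -0.11, 0.06 and -0.02.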

How the results depend on the processing

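With 1 pool per group and 2 technical arrays in each, the lack of repeated pools limits the precision, and no alternative measures the spread between mice. Over all alternatives for the 73 members and the pathway genes that passed, 1876 of 2056 comparisons kept their side of the threshold. Most of the 2056 comparisons were of genes that had not passed, and the calls were less stable, as given below. The sign changed in 86, over 26 genes or probes whose reported difference was at most 0.23 in size. In 3 of these the reported difference was larger than its SE, all with probes centred in 50 bins of like ID number: Srpk2 (-0.03), Lsm12 (-0.04) and Prpf4 (0.03). The median over the members stayed between -0.081 and -0.001 in every alternative that gave one.

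The calls depended on the processing. The call of Dhx38 was lost in 14 of 26 alternatives, of Prpf4b in 15 and of Hnrnpab in 16. The slope of Ddx24 lost its call in 14 of 26, and Srsf1 at 5 h in 3 of 19. Among pathway genes, Cbll1 lost its call in 15 of 25, and Ilf2, Sart1, Sf1 and Prmt5 in 17, 12, 10 and 6 of 26. In the test of TSA against control, where 262 probes and 3 members passed, 1 probe and 0 members passed without the filter on dim probes, 573 and 5 with the lowest 50% left out, and 9 and 0 with the bins. Robust eBayes with a trend gave 795 and 8, and the pool as a random block over 10 arrays 1044 and 11. Treating the 10 arrays as samples gave 2660 and 23 without a replicate block and 2388 and 21 with it. Leaving out 1 array, pool or array number gave 1 to 495 probes and 0 to 6 members. The lowest count of probes was without replicate 2 of every pool and the highest without the second control array.

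For the trend over hours, with 149 probes and 1 member, no probe and no member passed without the filter (0 and 0). With the lowest 50% left out 0 members passed, but Ddx24 was itself among the probes left out and was not retested. Robust eBayes gave 289 and 2, the random block 719 and 6, no replicate block 2353 and 18, and the replicate block 2111 and 18. Leaving out gave 0 to 197 probes, the lowest without the control, the 2.5 h or the 10 h pool, and 0 to 2 members. For late against early, with 0 of both, the values were 4 probes with robust eBayes, 10 with the random block, 415 and 1 without a replicate block and 160 and 1 with it, and 0 to 35 probes on leaving out, the highest without the 2.5 h pool. The replicate numbers did not pair the arrays.

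Under the size rule, adding 0.25 to the intensities gave 18, 64, 32 and 65 probes at 2.5, 5, 7.5 and 10 h, no filter 219, 355, 554 and 458, the lowest 50% left out 16, 27, 37 and 73, a 1.5-fold limit 562, 730, 876 and 1221, and a 3-fold limit 12, 42, 16 and 29. Members at 1.5-fold numbered 4, 8, 7 and 13. Without the filter they numbered 2 at 5 h, 1 at 7.5 h and 2 at 10 h. At 5 h there were 0 members with 0.25 added, with the lowest 50% left out, with the bins and at 3-fold, and at 10 h 1 with the bins. Srsf1 was itself among the lowest 50%, so that setting did not retest it. Leaving out gave 1 to 2 members at 5 h, and 0 to 2 at 7.5 h and at 10 h.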
